A study of Mus musculus with 5 samples.

Results

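Glycolysis splits glucose into pyruvate, and its lower steps carry the carbon from fructose bisphosphate onwards, returning ATP and NADH. Lactate dehydrogenase then reduces pyruvate to lactate, which renews the NAD that glyceraldehyde-3-phosphate dehydrogenase needs. Tumours are known for a high rate of this route, and several of its genes are textbook targets of the hypoxia-inducible factors. The 10 genes described here encode enzymes of this stretch together with glucose-6-phosphate isomerase, which acts near its start. They were Gpi1, Aldoa, Tpi1, Gapdh, Pgk1, Pgam2, Eno1, Eno2, Eno3 and Ldha, picked by symbol from the 54113 named entries of the gene count table, with the entry of highest mean count used where a symbol stood more than once.

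RNA was sequenced from 5 CRC tumours of C57BL/6 mice, 3 from mice kept at 30 °C and 2 from mice kept at 4 °C, both for 2 weeks. The study's mouse colorectal model in C57BL/6 mice used MC-38, an established mouse colon adenocarcinoma cell line, although the labels of these tumours do not name the line. The labels used here gave no age or sex for these mice, and no other allele or agent was named for either group. The comparison asks whether glycolytic gene expression in the tumours differed with housing temperature.

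Libraries held 16191708 to 20320525 counts. Levels are given as CPM, the counts per 1000000 after TMM scaling (trimmed mean of M-values, which corrects library sizes for differences in composition). The content of the libraries departed from that of an epithelial tumour line. Markers of epithelium summed to 18.5 to 166 CPM per tumour, with Vil1, Cdx2 and Krt19 each at 0 in at least 1 tumour, whereas B cell markers summed to 1288 to 3877 CPM and erythroblast markers to 14076 to 42188 CPM. The spleen mesenchyme markers Tlx1, Nkx2-5 and Nkx2-3 exceeded 3 counts in every tumour and summed to 32.5 to 41.3 CPM at 30 °C and 57.1 to 61.1 CPM at 4 °C. In 30 °C replicate 2, 28.1% of all counts lay on pancreatic acinar genes, against 0.274% in 4 °C replicate 2 and at most 0.0084% in the other tumours. Fold changes of the 10 genes are therefore also given without 30 °C replicate 2. In such bulk tissue, fewer cells of a type and less RNA per cell cannot be told apart.

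The sequences that matter most for reading these data are those of Gapdh, since the mouse genome holds many intronless copies of it (processed pseudogenes). Positions below are counted from 1 at the A of the start codon. The stretch from 331 to 400 lies in exon 4 of the Gapdh transcript used, at chr6:125162962-125163031 on the minus strand of GRCm38. It is shown with the same stretch of Gm7336 (chr7:51747027-51747096, plus strand), Gm5559 (chr5:95862044-95862113, plus strand), Gm12070 (chr11:26786963-26787032, plus strand) and Gm13394 (chr2:28934210-28934279, minus strand), the 4 copies with the most reads. Capitals in the Gapdh line mark the positions where a copy differs, and capitals in a copy mark its own base there.
Gapdh: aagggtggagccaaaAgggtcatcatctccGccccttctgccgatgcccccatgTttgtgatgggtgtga
Gm7336: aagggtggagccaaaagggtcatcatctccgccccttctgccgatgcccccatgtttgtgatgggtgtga
Gm5559: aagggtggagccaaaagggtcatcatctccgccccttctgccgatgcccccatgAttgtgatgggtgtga
Gm12070: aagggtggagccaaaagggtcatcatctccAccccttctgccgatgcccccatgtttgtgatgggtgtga
Gm13394: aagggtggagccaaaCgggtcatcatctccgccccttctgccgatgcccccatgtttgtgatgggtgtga

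Over the whole coding sequence of 1002 bases, Gm7336 was identical to Gapdh. Gm5559 differed by 1 substitution, T385A, Gm12070 by G361A and Gm13394, which aligned over 1000 bases, by A346C, where the base of Gapdh comes first. Thus, a read from the coding part of Gapdh mRNA that does not span 1 of these positions or reach into an untranslated end reads the same in the gene and in these copies.

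No difference between 4 °C and 30 °C was called for any of the 10 genes. Of the 10, 0 were called by the quasi-likelihood test of edgeR at an adjusted p of 0.05, where 0.0% of the 16133 genes tested were called. The Wald test of DESeq2 called 0 of the 10 and 118 of all genes (0.731%), and 0 of the 10 had an unadjusted edgeR p under 0.05, against 6.76% of all genes. At 4 °C, 7 of the 10 fold changes were above 0, where 50.7% of all genes were, and 3 were below, where 49.3% were. The median log2 fold change of the 10 genes, 4 °C minus 30 °C, was 0.16, beside 0.0064 over all genes tested. It was 0.028 without 30 °C replicate 2 and -0.11 without 4 °C replicate 2. Without 30 °C replicate 2, the log2 fold change was 0.018 for Aldoa, 0.038 for Eno1, 0.049 for Ldha, 0.26 for Pgam2, 0.38 for Eno3 and 0.63 for Eno2. It was -0.14 for Gpi1, -0.12 for Pgk1, -0.90 for Gapdh and -0.047 for Tpi1, which turned from 0.04.

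**Figure D1:**
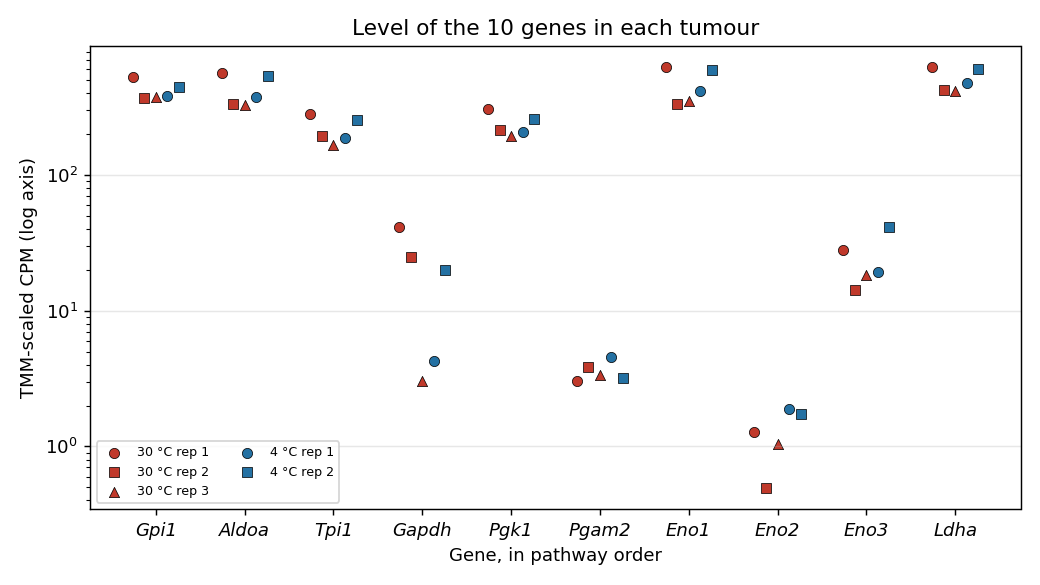
TMM-scaled CPM (log axis) of each of the 10 genes, in pathway order, with 1 point per tumour (red, 30 °C, n = 3; blue, 4 °C, n = 2; marker shape gives the replicate). Blue and red points interleave for 9 of the 10 genes, and both blue points lie above all red ones for Eno2 alone.

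Ldha, the muscle-type subunit of lactate dehydrogenase and the main lactate-forming one (chr7:46841475-46855627), had the highest mean level per length of the 10 genes over the 5 tumours, closely followed by Aldoa. It reached 625, 423 and 418 CPM in 30 °C replicates 1 to 3 and 480 and 608 CPM in the 4 °C replicates. Both 4 °C tumours fell inside the range of the 30 °C tumours, and the log2 fold change was 0.16 (SE 0.25, edgeR adjusted p = 0.93).

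Eno1 encodes the widely expressed alpha enolase, which forms phosphoenolpyruvate (chr4:150236721-150248879). Its levels were 620, 331 and 351 CPM at 30 °C and 415 and 592 CPM at 4 °C, again with the groups overlapping (log2 fold change 0.21, SE 0.33, edgeR adjusted p = 0.92). Aldoa, the aldolase that splits fructose bisphosphate into its triose products (chr7:126795234-126800751), gave 566, 331 and 326 CPM at 30 °C and 377 and 535 CPM at 4 °C. Here too the spread within each group exceeded the difference between them, with a log2 fold change of 0.16 (SE 0.31, edgeR adjusted p = 0.94).

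Gpi1, which interconverts glucose-6-phosphate and fructose-6-phosphate (chr7:34201330-34230336), stood at 530, 371 and 375 CPM at 30 °C and at 382 and 448 CPM at 4 °C. Its log2 fold change of -0.03 had a 95% interval from -0.59 to 0.52 (edgeR adjusted p = 0.98). Pgk1, an ATP-forming kinase of the pathway (chrX:106187100-106203699), had 307, 215 and 192 CPM at 30 °C and 207 and 256 CPM at 4 °C (log2 fold change -0.04, 95% interval -0.63 to 0.55). The isomerase gene Tpi1 (chr6:124810586-124814296) had 283, 193 and 167 CPM at 30 °C and 186 and 255 CPM at 4 °C (log2 fold change 0.04, 95% interval -0.63 to 0.70). For these genes the point estimates lay near 0, but the intervals allowed shifts of about 0.5 to 0.7 on the log2 scale in either direction.

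**Figure D2:**
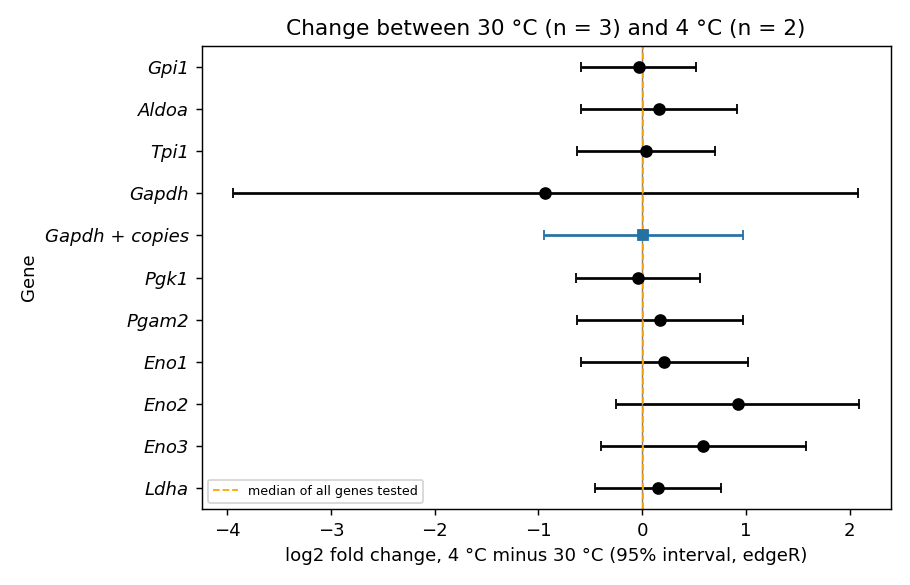
Log2 fold change of each gene, 4 °C (n = 2) minus 30 °C (n = 3), with its 95% interval from edgeR, and in blue the value for Gapdh with the reads on its copies added. Every interval includes 0, and the Gapdh interval, from -3.94 to 2.08, shortens to -0.95 to 0.97 once the copies are added.

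Although no difference between the groups was called, the abundant genes varied together from tumour to tumour. Summed over Gpi1, Aldoa, Tpi1, Pgk1, Eno1 and Ldha, the level was 2930, 1864 and 1830 CPM in 30 °C replicates 1 to 3 and 2046 and 2694 CPM in the 4 °C replicates. One tumour of each group, 30 °C replicate 1 and 4 °C replicate 2, stood above the other 3. The group means were 2208 ± 626 CPM (SD, n = 3) at 30 °C and 2370 ± 458 CPM (SD, n = 2) at 4 °C, with a two-sided exact permutation p of 1.0. With 3 tumours against 2, this test cannot go below 0.2.

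These same 2 tumours held the highest levels for 7 of the 10 genes, namely Aldoa, Tpi1, Pgk1, Eno1, Eno3, Ldha and Gpi1. Among all genes tested, 20.01% had that order. The order was read off the sum above, which holds all of these 7 genes except Eno3. The 2 shares are therefore a description and not a test. The 7 genes kept this order under RLE and upper-quartile scaling. Of the 29 tested genes on the list of other glycolysis and lactate genes, 4 shared it, Pfkl, Pgam1, Pkm and G6pc3. Of the 20 hypoxia response genes, 6 did, namely Car9, Bnip3, Ndrg1, Egln3, Egln1 and P4ha1. Egln3, a prolyl hydroxylase and a known hypoxia-inducible target chosen here after its values were seen, had 19.2, 3.86 and 3.36 CPM at 30 °C and 3.38 and 28.5 CPM at 4 °C. Neutrophil markers were highest in 30 °C replicate 1 (13373 CPM) but not in 4 °C replicate 2 (4197 CPM), against 2578 to 8836 CPM in the other 3 tumours. Their part in this order was not tested.

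**Figure D3:**
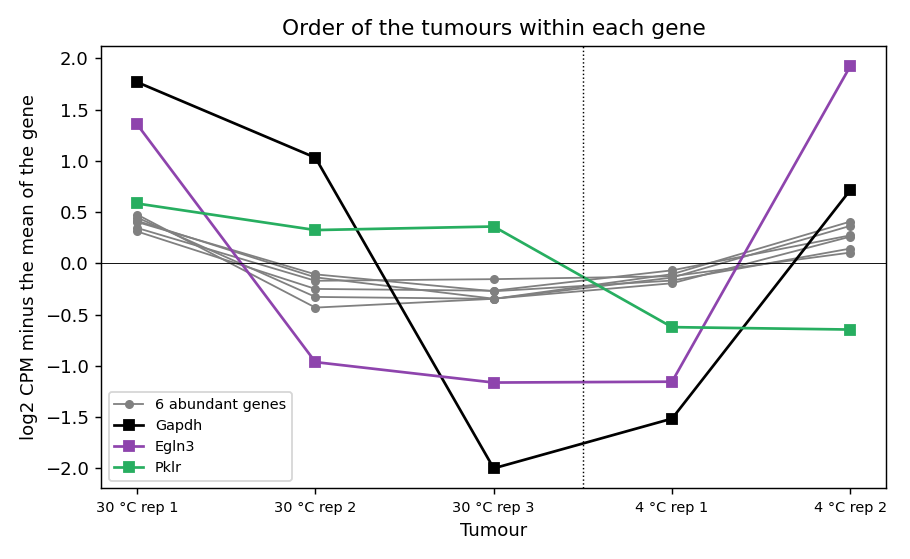
Log2 CPM of each gene minus its own mean over the 5 tumours, for the 6 abundant genes (grey), Gapdh, Egln3 and Pklr. The grey lines peak in 30 °C replicate 1 and 4 °C replicate 2, Gapdh spans a far wider range with its lowest points in 30 °C replicate 3 and 4 °C replicate 1, and Pklr separates the groups.

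Of the abundant genes, some carry in their promoters the letters ACGTG, a form of the core of the hypoxia response element. Other forms of the core were not searched. RefSeq promoters on GRCm38.p6 were matched for all 10 genes by symbol, and the 250 bases before each start were searched on both strands for ACGTG, in any of a gene's listed promoters. The letters were found for 3 of the 10 genes, Ldha, Pgk1 and Aldoa, and for 18.5% of 27025 genes. Ldha and Aldoa each also had a listed promoter without them. Shown are 50 bases of each, at chr7:46845734-46845783 (Ldha, plus strand, -70 to -21 from the start), chrX:106186935-106186984 (Pgk1, plus strand, -165 to -116) and chr7:126799345-126799394 (Aldoa, minus strand, -140 to -91). Capitals mark ACGTG on either strand, and in CACGTG the matches of both strands overlap.
Ldha promoter: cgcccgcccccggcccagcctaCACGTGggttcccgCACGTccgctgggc
Pgk1 promoter: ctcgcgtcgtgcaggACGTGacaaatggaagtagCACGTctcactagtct
Aldoa promoter: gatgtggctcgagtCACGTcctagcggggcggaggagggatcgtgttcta

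Gapdh itself gave the most variable values of the 10 genes. The entry named Gapdh (chr6:125161715-125166467), the gene of glyceraldehyde-3-phosphate dehydrogenase, held 782, 304 and 70 counts in 30 °C replicates 1 to 3 and 86 and 335 counts in the 4 °C replicates, or 41.6, 24.9 and 3.05 CPM against 4.27 and 20.04 CPM. The highest tumour exceeded the lowest 13.6-fold, and both lay in the 30 °C group. The log2 fold change was -0.93 (SE 1.18, edgeR adjusted p = 0.90). It was -0.90 without 30 °C replicate 2 but -0.19 without 30 °C replicate 1 and -2.46 without 4 °C replicate 2.

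Most of the counted reads with Gapdh sequence lay on its copies. The table listed 264 copies of Gapdh, of which 116 had at least 1 read and 10 had more than 3 reads in every tumour. Together they held 3785, 1527 and 2462 counts at 30 °C and 2310 and 3322 counts at 4 °C. The Gapdh entry therefore held 17.1%, 16.6% and 2.76% of the reads on gene plus copies at 30 °C, and 3.59% and 9.16% at 4 °C. The entry's share was lowest in 30 °C replicate 3 and 4 °C replicate 1, 1 tumour of each group.

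Gm5559 had the most reads of all the copies, with 1916, 724 and 1159 counts at 30 °C and 1073 and 1850 at 4 °C. Gm7336, named after its values were seen, followed with 1410, 611 and 951 counts at 30 °C and 960 and 1043 at 4 °C. Both received 85.7% to 88.0% of the copy reads in every tumour, although Gm7336 is identical to Gapdh over the coding sequence and Gm5559 differs by the 1 base capitalised above. The ratio of Gapdh to Gm5559 reads was 0.408, 0.420 and 0.0604 at 30 °C and 0.0801 and 0.181 at 4 °C, whereas that of Gm7336 to Gm5559 stayed between 0.564 and 0.895. The log2 fold changes of these copies were 0.22 (SE 0.41, edgeR adjusted p = 0.93) for Gm5559 and -0.01 (SE 0.29, edgeR adjusted p = 0.99) for Gm7336.

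When the reads on gene and copies were added, Gapdh sequence amounted to 243, 150 and 110 CPM at 30 °C and 119 and 219 CPM at 4 °C. The range from lowest to highest tumour was then 2.20-fold, and 30 °C replicate 1 and 4 °C replicate 2 were again the highest. The log2 fold change of the sum was 0.0092 (SE 0.40, edgeR adjusted p = 1.00), so the negative value of the Gapdh entry was not seen in the sum. How reads with several matches were counted is not given in the sources used here.

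**Figure D4:**
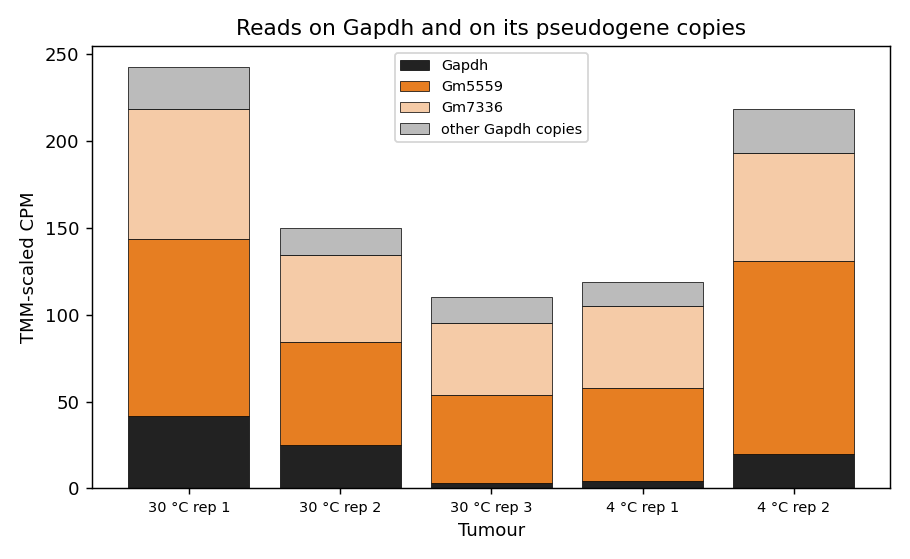
TMM-scaled CPM on the Gapdh entry (black), on the pseudogenes Gm5559 and Gm7336 (orange) and on all other Gapdh copies (grey), stacked per tumour. The black segment ranges from 3.05 to 41.6 CPM while the whole bar ranges from 110 to 243 CPM.

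The genes nearest to the Gapdh entry over the 5 tumours, by root mean square difference of centred log2 CPM, were Arhgef19 (0.36), Sybu (0.43), Pacsin3 (0.47), Gm24187 (0.51) and Erfe (0.51). Arhgef19 had 5.26, 5.91 and 0.698 CPM at 30 °C and 0.944 and 3.77 CPM at 4 °C. The sum of the epithelium markers was likewise lowest in 30 °C replicate 3 and 4 °C replicate 1. It was 57.0, 166 and 19.1 CPM at 30 °C and 18.5 and 90.3 CPM at 4 °C over 9 genes, of which 6 were over 3 counts in every tumour. Krt8, Krt18 and Krt19 were lowest in these 2 tumours, whereas Krt20, Epcam, Cdh1, Vil1, Cdx2 and Lgals4 did not follow this order. The summed pancreatic acinar markers were also lowest there, with 78.1, 381469 and 28.0 CPM at 30 °C and 19.8 and 2650 CPM at 4 °C. The part of either list in the Gapdh values was not tested.

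Copies of the other genes held few reads. Their share of the reads on gene plus copies was 2.17% to 3.40% for Eno1 (8 copies in the table), 0.333% to 0.845% for Ldha (22 copies), 0.464% to 1.06% for Pgk1 (5 copies), 0.267% to 0.689% for Tpi1 (6 copies), 0.156% to 0.319% for Gpi1 (1 copy) and 0.0248% to 0.122% for Aldoa (8 copies). For Pgam2, Eno2 and Eno3, 0 copies were found. The leading copies of the remaining genes were Eno1b with 80 to 181 counts per tumour, Ldha-ps2 with 22 to 42, Pgk1-rs7 with 20 to 37, Tpi-rs11 with 10 to 37, Gm1840 of Gpi1 with 10 to 30 and Gm5276 of Aldoa with 1 to 13.

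A small share of reads on copies did not mean little shared sequence. All windows of 100 bases in the coding sequence of Gapdh and of Pgk1 (100%) also occurred in another annotated gene, as did 69.2% of those of Eno1, 11.6% of Gpi1, 2.44% of Ldha and 1.498% of Tpi1. For Aldoa, Pgam2, Eno2 and Eno3 the share was 0%. Of the reads counted on gene plus copies, 98.9% to 99.5% thus lay on Pgk1 and 2.76% to 17.1% on Gapdh, with as much shared coding sequence. Any reads left uncounted for having several matches would be in neither share, and how such reads were handled is not given. Read length is not given in the sources used here, and 100 bases was a chosen length.

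**Figure D5:**
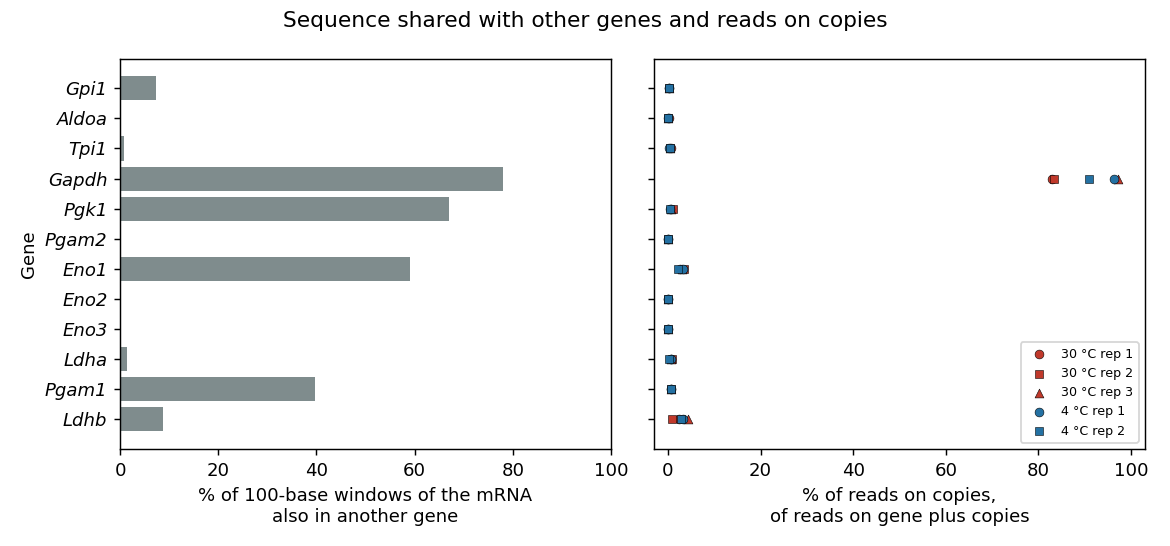
Left, percent of all 100-base windows of the principal messenger RNA that also occur in another annotated gene, for the 10 genes and for Pgam1 and Ldhb. Right, percent of the reads on gene plus copies that were counted on copies, 1 point per tumour, where Gapdh alone lies above 80% and Pgk1 lies near 1% in spite of a long bar at left.

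Enolase, the enzyme that forms phosphoenolpyruvate, comes in alpha (Eno1), gamma or neuronal (Eno2) and beta or muscle (Eno3) forms, which differ enough for reads to be told apart. Shown are bases 696 to 755 of the coding sequences, all in exon 8, at chr4:150246598-150246657 (Eno1, plus strand), chr2:80837836-80837895 (Gm4735, a copy of Eno1, plus strand), chr11:70661025-70661084 (Eno3, plus strand) and chr6:124763837-124763896 (Eno2, minus strand), where Gm4735 has a single exon. Capitals mark bases that differ from Eno1, 15 in Eno3, 12 in Eno2 and 1 (T726C) in Gm4735.
Eno1: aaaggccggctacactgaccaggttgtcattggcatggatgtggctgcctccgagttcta
Gm4735: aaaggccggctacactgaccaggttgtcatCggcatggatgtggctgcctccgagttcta
Eno3: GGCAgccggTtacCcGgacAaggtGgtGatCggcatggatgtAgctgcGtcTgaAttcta
Eno2: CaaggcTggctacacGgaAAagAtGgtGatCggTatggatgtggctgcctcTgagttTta

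Over the 1305 coding bases, 75.1% were identical between Eno1 and Eno2 and 76.7% between Eno1 and Eno3. Eno2 (chr6:124760053-124769673) was the lowest of the 10 genes, with 24, 6 and 24 counts at 30 °C and 38 and 29 counts at 4 °C, or 1.28, 0.492 and 1.05 CPM against 1.89 and 1.74 CPM. It was the 1 gene of the 10 whose groups did not overlap, where 23.3% of all genes tested did not. The log2 fold change was 0.92 (SE 0.49, edgeR adjusted p = 0.78) and 0.63 without 30 °C replicate 2, which had the 6 counts. Counting error alone gave 95% Poisson intervals of 0.817 to 1.90 CPM for 30 °C replicate 1 and 1.16 to 2.49 CPM for 4 °C replicate 2, so these tumours were not separable at this depth. Markers of neurons and neuroendocrine cells summed to 11.6 to 17.3 CPM at 30 °C and 16.2 to 18.5 CPM at 4 °C. Of these 11 genes, 6 were over 3 counts in every tumour, and Snap25 and Elavl3 were at 0. Both 4 °C sums lay above those of 30 °C replicates 1 and 3. The sum of 30 °C replicate 2 included 5.50 CPM of Chga, which reached at most 0.0531 CPM in the other tumours. The groups did not overlap for 5 of the 11 genes. Uchl1, Syt1 and Stmn2 were higher at 4 °C, whereas Chga and Chgb were lower. The part of these markers in the Eno2 values was not tested.

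Eno3 (chr11:70657202-70662513) had 28.1, 14.1 and 18.4 CPM at 30 °C and 19.3 and 41.6 CPM at 4 °C. Its highest value came from 4 °C replicate 2, and the log2 fold change of 0.59 (SE 0.41, edgeR adjusted p = 0.83) became -0.083 without that tumour. Per length of exon, Eno1 made up 87.2% ± 1.25 (SD, n = 3) of the enolase reads at 30 °C and 84.5% ± 3.63 (SD, n = 2) at 4 °C. Eno3 made up 12.6% ± 1.18 (SD, n = 3) and 15.2% ± 3.76 (SD, n = 2), and Eno2 0.216% ± 0.0718 (SD, n = 3) and 0.364% ± 0.126 (SD, n = 2). Each of these shares gave a two-sided exact permutation p of 0.4, in a design that cannot go below 0.2, and the groups overlapped for each of them.

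Pgam2 encodes the muscle form of phosphoglycerate mutase, and Pgam1, which is not among the 10 genes, the widely expressed form. Bases 151 to 210 of the coding sequence show how they differ, from chr19:41915616-41915675 (Pgam1, plus strand, exon 2) and chr11:5803479-5803538 (Pgam2, minus strand, exon 1), with the 11 differing bases of Pgam2 in capitals.
Pgam1: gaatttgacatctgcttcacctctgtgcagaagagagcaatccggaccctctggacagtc
Pgam2: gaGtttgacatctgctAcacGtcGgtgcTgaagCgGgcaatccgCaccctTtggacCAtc

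Pgam2 (chr11:5801640-5803733) was low in every tumour, at 3.03, 3.86 and 3.36 CPM at 30 °C and 4.52 and 3.17 CPM at 4 °C (log2 fold change 0.18, SE 0.33, edgeR adjusted p = 0.93). Pgam1 reached 152, 87.4 and 84.9 CPM at 30 °C and 84.7 and 113 CPM at 4 °C (log2 fold change -0.13, SE 0.31, edgeR adjusted p = 0.95). Per length of exon, Pgam2 gave 7.48% ± 2.64 (SD, n = 3) of the reads on both genes at 30 °C and 8.69% ± 3.52 (SD, n = 2) at 4 °C (two-sided exact permutation p = 0.8). Markers of skeletal muscle were low in both groups, at 25.9 to 27.7 CPM at 30 °C and 23.7 to 32.4 CPM at 4 °C over 20 genes, with 7 over 3 counts in every tumour and Myh4 and Ckmt2 at 0. Whether muscle cells contributed to Pgam2 or Eno3 was not tested.

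Compared per length of messenger RNA, as mean CPM per kb over the 5 tumours, the 10 genes formed 2 tiers. The upper tier held Ldha (289), Aldoa (282), Eno1 (228), Gpi1 (146), Tpi1 (135) and Pgk1 (129). The lower tier held Eno3 (15.5), Gapdh (13.2), Pgam2 (4.27) and Eno2 (0.461). Gapdh was placed, here and below, by its own entry alone, which held 2.76% to 17.1% of the reads on gene plus copies. Before division by length, this entry averaged 23.2 CPM at 30 °C and 12.2 CPM at 4 °C. With the copies added, the averages were 168 and 169 CPM, so its tier depends on how the copy reads are assigned. At 30 °C, Ldha (277 ± 66.6), Aldoa (270 ± 90.6) and Eno1 (214 ± 79.8 CPM per kb, SD, n = 3) lay within 1 SD of each other. So did Gpi1 (147 ± 31.5), Tpi1 (134 ± 37.9) and Pgk1 (130 ± 33.2 CPM per kb, SD, n = 3). Eno1 and Gpi1 were further apart at 4 °C, with 248 ± 61.8 and 144 ± 16.3 CPM per kb (SD, n = 2). Eno3 and Gapdh also lay within 1 SD, at 12.9 ± 4.57 and 16.3 ± 13.6 CPM per kb (SD, n = 3), whereas Eno2, at 0.336 ± 0.144, fell below Pgam2, at 4.06 ± 0.495 CPM per kb (SD, n = 3), by more than their spread. Divided by the longer merged exon length, Pgk1 moved from the sixth place to the third, while Gapdh stayed eighth.

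Lactate dehydrogenase reads came almost wholly from Ldha. Per length of exon, its share of the reads on Ldha and Ldhb was 97.9%, 95.6% and 97.6% at 30 °C and 97.4% and 97.2% at 4 °C (two-sided exact permutation p = 1.0). The difference between the group means, 0.318 percentage points, turned to -0.415 without 30 °C replicate 2. Ldhb, the heart-type subunit, had 4.80 to 9.35 CPM over the 5 tumours (log2 fold change 0.05, SE 0.36, edgeR adjusted p = 0.98, and 0.32 without 30 °C replicate 2). The testis form Ldhc stayed at 0.298 to 1.23 CPM.

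Most other genes of the same steps also overlapped between the groups. Pkm, the main pyruvate kinase of proliferating tissue, had 864, 576 and 531 CPM at 30 °C and 624 and 760 CPM at 4 °C (log2 fold change 0.08, SE 0.27, edgeR adjusted p = 0.97, and -0.024 without 30 °C replicate 2). Bpgm, the red cell mutase that makes 2,3-bisphosphoglycerate, had 364, 607 and 208 CPM at 30 °C and 512 and 414 CPM at 4 °C (log2 fold change 0.24, SE 0.43, edgeR adjusted p = 0.93, and 0.68 without 30 °C replicate 2). Further isozymes were rare, with Aldoc at 2.95 to 9.21 CPM (log2 fold change 0.54, SE 0.44), Eno1b at 5.44 to 9.62 CPM, Gapdhs at 6 to 15 counts, Eno4 at 0 to 8 counts and Pgk2 at 0 or 1 count per tumour.

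Pklr, the pyruvate kinase of liver and red cells, stood apart from the 10 genes. It had 71.3, 59.5 and 61.0 CPM at 30 °C and 30.9 and 30.4 CPM at 4 °C, so that both 4 °C tumours lay below all 30 °C tumours. The log2 fold change was -1.06 (SE 0.17) with an edgeR adjusted p of 0.69, while DESeq2 gave an adjusted p of 0.000386. Erythroblast markers, over 10 genes all above 3 counts in every tumour, summed to 14076 to 42188 CPM at 30 °C and 33127 to 40918 CPM at 4 °C, and their part in Pklr was not tested.

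On the list of 41 other glycolysis and lactate genes, 29 could be tested and 0 were called by edgeR, while DESeq2 called 1, Pklr. At an unadjusted edgeR p under 0.05, 5 were lower at 4 °C and 0 higher, where 4.17% of all genes tested were lower and 2.58% higher. In 8 of the 29 both 4 °C tumours lay below all 30 °C tumours, where 11.0% of all genes tested did, and in 0 above. The median log2 fold change of the list was -0.29, against 0.16 for the 10 genes. Beside Pklr, the 5 with unadjusted p under 0.05 were Pfkm, a phosphofructokinase subunit (log2 fold change -0.66, SE 0.19), Pfkfb4, which sets fructose-2,6-bisphosphate (-0.62, SE 0.21), Pck2, the mitochondrial phosphoenolpyruvate carboxykinase (-0.76, SE 0.29), and Hk1, a hexokinase (-0.44, SE 0.18). Adpgk, an ADP-dependent glucokinase, followed with -0.76 (SE 0.32). The edgeR adjusted p of these genes, Adpgk included, ran from 0.69 to 0.74.

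The summed levels of 3 marker lists did not overlap between the groups, whereas those of the other marker lists overlapped. Single genes in those other lists could still differ. The genes that did not overlap ran from 0 of 29 for pancreatic acinar cells to 5 of 11 for neurons and neuroendocrine cells. Proliferation markers summed to 2091 to 2728 CPM at 30 °C and 1346 to 1464 CPM at 4 °C, with 6 of the 8 genes not overlapping between the groups. Smooth muscle markers summed to 251 to 337 CPM at 30 °C and 516 to 558 CPM at 4 °C, with 7 of the 10 genes not overlapping. For the spleen mesenchyme markers given above, this held for 3 of 3 genes. Among all genes tested, 23.3% did not overlap between the groups in either direction. All genes of the proliferation, smooth muscle and spleen mesenchyme lists exceeded 3 counts in every tumour. The part of these lists in the values of the pathway list was not tested.

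Of the 20 hypoxia response genes, all were tested and 0 were called by edgeR or DESeq2. At an unadjusted edgeR p under 0.05, 2 were higher and 1 was lower at 4 °C. Of all genes tested, 2.58% were higher and 4.17% lower at that threshold. The 3 genes named below were taken for their smallest p. Ankrd37, a known target of hypoxia-inducible factor, had 4.84, 3.28 and 4.27 CPM at 30 °C and 8.05 and 7.90 CPM at 4 °C (log2 fold change 0.94, SE 0.29, edgeR adjusted p = 0.69). Of the glucose transporter genes, Slc2a1 gave a log2 fold change of 0.58 (SE 0.24, edgeR adjusted p = 0.73) and Slc2a3 one of -0.59 (SE 0.20, edgeR adjusted p = 0.70). The median of the list was 0.21.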

How the data were processed

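RNA-seq libraries of 5 tumours (3 at 30 °C, 2 at 4 °C) were analysed from the deposited table, in which the authors gave raw counts per gene, made with featureCounts v2.0.0 on Gencode vM19 (GRCm38). The submitters' processing notes also name fastp, HISAT and RSEM. Strand setting and the handling of reads with several matches are not given in the sources used here. Entries without a name (0.0101% to 0.0170% of counts) were left out, and totals on named genes were 16191708 to 20320525. The labels do not say that tumours came from separate mice, so p-values measure the spread between these samples only.

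Genes passing filterByExpr were scaled by TMM and tested with the quasi-likelihood F-test of edgeR 4.0.16 in R 4.3.3 (robust, no covariate). Adjustment followed Benjamini-Hochberg over 16133 genes, with a threshold of 0.05. Fold changes are 4 °C minus 30 °C. The fit was tested on simulated data. For single values, exact permutation tests were run with scipy 1.17.1. Intervals for single libraries are exact Poisson and cover counting error only, and a count of 3 was taken as the floor. Log2 CPM used a prior count of 2.

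Places and transcripts come from GENCODE M21 (GRCm38). Copies were genes aligned by blastn 2.17.0 to the principal messenger RNA of a member at 85% identity or more over at least 300 bases. Genes other than pseudogenes also had to align over 70% of their transcript, a limit set after the hits had been seen, which left out 5 host genes. This gave 326 copies, including those of Pgam1 and Ldhb, of which 318 were in the table.

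Members and lists were chosen with earlier results of these data known. Named are the 10 genes, genes of the same steps, the 5 other pathway and 3 hypoxia genes with the smallest p, the copy of each enzyme with the most reads and the 5 genes nearest to the most variable member. Other genes were named after their values were seen. A gene that the rule selects is not reported here. As alternatives, DESeq2 1.42.0 (Wald test), upper-quartile or RLE scaling, leaving the filter out or asking for 10 counts in every library, a replicate block, a fit that was not robust, leaving out single tumours, acinar genes removed, copies added to the parent gene, an unadjusted threshold and, for shares, raw counts without length were run. A minimum identity of 98% for copies and the length of the principal messenger RNA were added after seeing the data.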

Additional observations from a re-analysis of the deposited data

How the results depend on the processing

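The number of the 10 genes called was 0 under every alternative run, and their median log2 fold change ran from 0.062 (replicate block) to 0.21 (upper-quartile scaling). Over all genes, 118 were called by DESeq2, 44 with the replicate block and 1090 at unadjusted p under 0.05. On the list of other glycolysis and lactate genes the counts were 1 by DESeq2 and 5 at unadjusted p under 0.05, and for the hypoxia genes 3 at unadjusted p under 0.05. The log2 fold change of Gapdh turned to 0.0092 with its copies added, because reads on the copies were then included. Under upper-quartile scaling those of Pgk1, Gpi1 and Gm7336 turned to 0.012, 0.019 and 0.040, and the cause was not tested. The groups share replicate numbers but nothing in the labels ties same-numbered tumours together, and the correlation of their deviations over 16133 genes was -0.25 for replicate 1 and 0.26 for replicate 2. With the replicate number as a block, Tpi1 turned to -0.11, Bpgm to -0.029, Pkm to -0.034, Ldhb to -0.15 and Gm5559 to -0.019. The cause of the shifts under the block and under DESeq2 was not tested.

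When single tumours were left out, the counts of called genes ran from 0 to 0 for all genes and for each list, where leaving out a 4 °C tumour assumes that the remaining one varies like the 30 °C group. The median of the 10 genes ran from -0.11 to 0.33. Log2 fold changes ran from -0.13 to 0.47 for Aldoa, -0.22 to 0.29 for Tpi1, -0.22 to 0.18 for Pgk1, -0.10 to 0.39 for Pgam2, -0.081 to 0.56 for Eno1, -0.083 to 1.04 for Eno3, -0.041 to 0.37 for Ldha, -0.17 to 0.16 for Gpi1, -0.37 to 0.20 for Pgam1, -0.067 to 0.68 for Bpgm, -0.089 to 0.32 for Pkm, -0.22 to 0.32 for Ldhb, -0.42 to 0.65 for Gm5559 and -0.24 to 0.27 for Gm7336. Differences in share, in percentage points, ran from -0.415 to 0.738 for Ldha, -5.29 to -0.151 for Eno1, 0.0584 to 0.237 for Eno2, -0.0864 to 5.23 for Eno3, -1.28 to 3.70 for Pgam2 and -10.5 to -3.003 for the Gapdh entry among gene plus copies. With the length of the principal messenger RNA, Eno3 made up 5.70% of the enolase reads at 30 °C and 7.003% at 4 °C, against 12.6% and 15.2% by exon length. Depth limits Eno2 and Pgam2 most, with 6 to 38 and 47 to 91 counts.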
